A study of Mus musculus with 12 samples.

Results

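The Slc25 genes encode the mitochondrial carriers, the largest family of transporters in the inner mitochondrial membrane. The family was taken as every protein-coding gene of the count table whose symbol starts with Slc25a followed by a digit, which gave 47 of 42748 genes. Total RNA from mouse kidney was sequenced in 4 groups of 3 libraries. Ybx3 knockout (KO) kidneys that had undergone ischemia/reperfusion injury (IRI), a stop and later return of the blood supply, were set beside uninjured control KO kidneys, and wild-type (WT) kidneys after IRI beside uninjured control WT kidneys. All animals were adult mice. The product of Ybx3, known as DNA-binding protein A, has a cold shock domain and binds nucleic acids. The comparisons are those of IRI with control kidneys within a genotype, of KO with WT kidneys within a condition, and of the response to IRI between genotypes. The sources used here do not give the strain, the sex, the time after injury, the part of Ybx3 that was deleted or whether the libraries came from separate animals. The p-values therefore measure only the spread between these samples, which may be technical.

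Mitochondrial carriers are small proteins built from a repeated pair of membrane-spanning helices, and most of them exchange a solute of the matrix for a solute of the intermembrane space. They move ADP and ATP, phosphate, di- and tricarboxylates, amino acids, acylcarnitines, cofactors and iron, and so link oxidative phosphorylation to the metabolism of the cytosol. The proximal tubule of the kidney is rich in mitochondria, draws its energy mainly from fatty acid oxidation and is the main site of damage in ischemic injury.

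The deposited counts summed to between 39074224 and 67948710 per library. Carrier genes took 0.277% to 0.342% of the counts. Values below are CPM, counts relative to a library size scaled by the TMM method. Ybx3 stood at 13.6, 15.6 and 18.6 CPM in KO IRI kidneys and 12.9, 9.28 and 9.48 CPM in KO control kidneys, against 81.1, 53.9 and 105 CPM in WT IRI kidneys and 36.9, 33 and 30.2 CPM in WT control kidneys, so that all 6 KO libraries were below all 6 WT libraries. The summed level of 8 proximal tubule genes was 8152, 4275 and 6098 CPM in KO IRI kidneys and 11740 to 15650 CPM in KO control kidneys, and 3910, 7468 and 5339 CPM in WT IRI kidneys against 12310 to 15810 CPM in WT control kidneys. Most of this sum came from Lrp2 and Slc34a1, and Slc22a6 of the same list lay the other way in WT kidneys, with 578, 413 and 365 CPM after IRI against 274, 214 and 163 CPM in controls (log2 change 1.06, edgeR adjusted p = 0.0738). In bulk RNA, fewer cells of a type and less RNA per cell cannot be told apart. Some libraries stood apart in other ways. The summed level of 5 adrenal cortex genes was 272 CPM in KO IRI replicate 1 and 1397 CPM in KO IRI replicate 2, against 5.15 to 7.49 CPM in the other 10 libraries. The summed level of 4 Y-linked genes was 45.2, 227 and 1.26 CPM in KO IRI kidneys and 1.18, 249 and 261 CPM in KO control kidneys, and 207, 33.2 and 307 CPM in WT IRI kidneys against 1.14, 1.79 and 1.54 CPM in WT control kidneys. In WT kidneys the Y-linked level therefore moved with IRI, and what belongs to either cannot be told apart there. In KO kidneys low and high Y-linked levels occurred both with and without IRI. Among control kidneys the level was high only in KO libraries, so genotype and Y-linked level are partly mixed there. The median log2 change of the 4 Y-linked genes was 7.03 for KO against WT in control kidneys and -8.24 for the interaction, which holds the same imbalance.

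Of the 47 carrier genes, 44 had enough counts to be tested. Slc25a2, a carrier of ornithine and other basic amino acids, had 0 counts in every library, which allows a level of up to 0.0742 CPM in the library with the fewest counts (3 counts per library, counting error only). Slc25a41 had 1 to 8 counts per library and Slc25a54 had 0 to 14. Slc25a31, the ADP/ATP carrier known from testis, was tested but had at most 18 counts in a library.

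Levels can be compared between genes only per length, here as CPM per kb of annotated exon, introns retained in some transcript models included. Slc25a5, an ADP/ATP carrier, stood highest in every group, with 178 ± 12 CPM per kb in KO IRI kidneys, 202 ± 14 in KO control kidneys, 181 ± 19 in WT IRI kidneys and 221 ± 17 in WT control kidneys (SD, n = 3). In WT control kidneys it was followed by the phosphate carrier Slc25a3 with 72.2 ± 5.6 CPM per kb, the glutathione carrier Slc25a39 with 72.2 ± 8.3 and the ADP/ATP carrier Slc25a4 with 64.7 ± 9.2, and these 3 did not differ beyond their spread. The aspartate/glutamate carrier Slc25a13 came next with 51.9 ± 4.7 CPM per kb, then the oxodicarboxylate carrier Slc25a21 with 46.6 ± 7.9 and the dicarboxylate carrier Slc25a10 with 44.2 ± 6.1, which overlapped in the same way. The order of the family was not the same after IRI. Slc25a30, named for its discovery in kidney mitochondria, was 8th after IRI and 13th in control kidneys of KO mice, and 5th after IRI and 14th in control kidneys of WT mice. Slc25a24 was 22nd after IRI and 39th in control kidneys of KO mice, and 18th after IRI and 40th in control kidneys of WT mice.

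**Figure D1:**
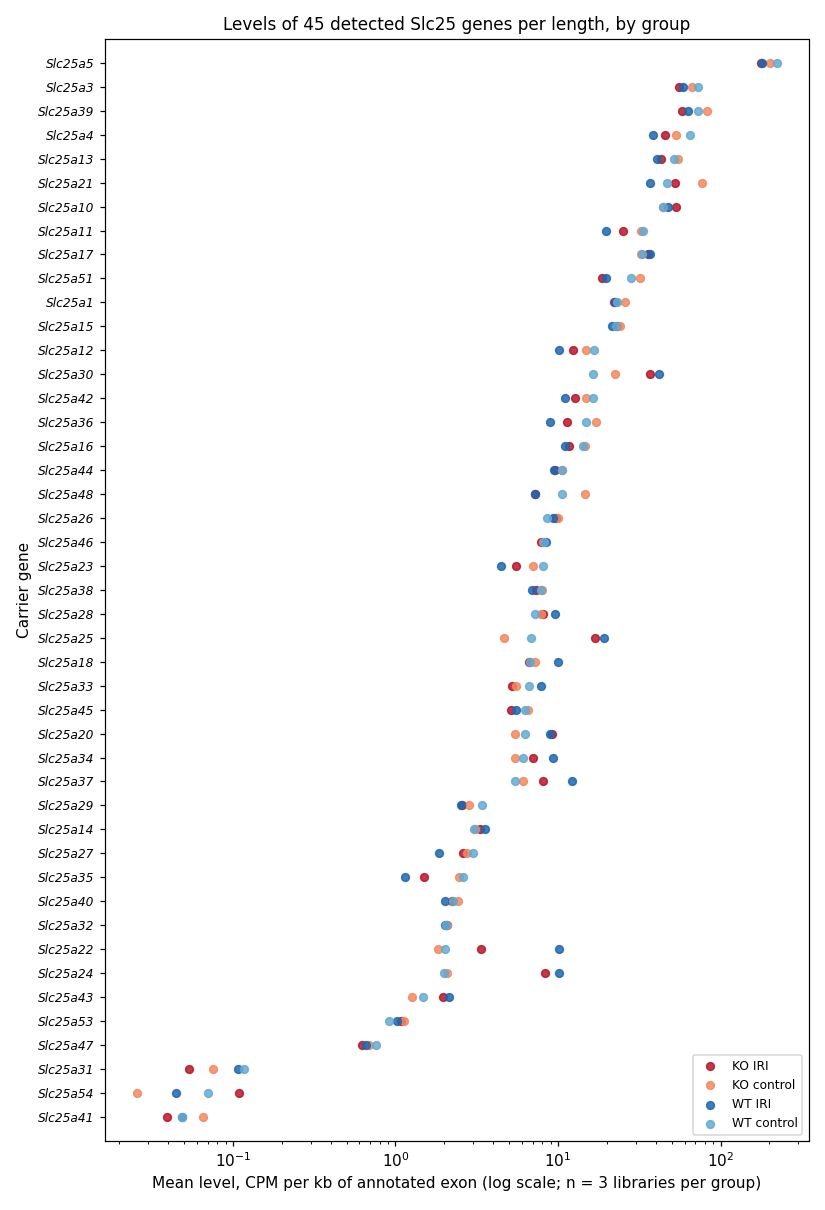
Mean level of 45 detected carrier genes in CPM per kb of annotated exon, on a log axis, with 1 dot per group (n = 3 libraries each). Slc25a5 lies farthest right at 178 to 221 CPM per kb, and the dots of Slc25a24, Slc25a25, Slc25a22 and Slc25a30 after IRI lie to the right of their control dots in both genotypes.

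After IRI in KO kidneys, 6 of the 44 tested carrier genes passed the quasi-likelihood test of edgeR (adjusted p under 0.05 by Benjamini and Hochberg, taken over all genes), 4 of them higher and 2 lower. That is 13.6% of the tested carriers, where 6.32% of all genes tested were called (3.9% higher and 2.42% lower). The median log2 fold change was -0.13 over the carriers and 0.02 over all genes tested. The 3 libraries after IRI all lay above the 3 control libraries for 9 carriers and all below for 12, against 21.2% and 15% of all genes tested. In percent of the tested carriers these counts are 20.5% above and 27.3% below. The fit with every library called 1215 genes in all. The number of carriers called was 2 without KO IRI replicate 2 (252 genes in all) or 3 (442) and without KO control replicate 2 (178) or 3 (213). It was 3 without WT control replicate 2 (729 genes in all) or 3 (774), and 10 without WT IRI replicate 3 (2889). Without both libraries that held adrenal genes, which leaves 1 KO IRI library assumed to vary like the other groups, 1 carrier was called, Slc25a25, as were 44 genes in all.

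After IRI in WT kidneys, 13 of the 44 carriers passed, 5 higher and 8 lower. That is 29.5% of the tested carriers, where 22.5% of all genes tested were called (13.1% higher and 9.41% lower). The median log2 fold change was -0.16 over the carriers and 0.02 over all genes. No overlap was seen between the groups for 9 carriers above and 15 below, 20.5% and 34.1% of those tested, against 21.2% and 19.9% of all genes. Over all genes, 4320 were called. The number of carriers was 6 without WT control replicate 2 (1570 genes in all), 7 without WT control replicate 3 (1694) and 7 without WT IRI replicate 1 (2072). With Y-linked expression added as a covariate the called carriers were Slc25a24, Slc25a25 and Slc25a30, 3 in number, and 306 genes were called in all. With only the WT groups in the fit 5 carriers and 1232 genes in all were called, the carriers being these 3 with Slc25a36 and Slc25a42.

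The comparisons in KO and in WT kidneys share no library. Of the 44 carriers, 38 had a log2 fold change of the same sign in both (Pearson r = 0.86, Spearman rho = 0.86 across genes, which are not independent replicates). Slc25a24, Slc25a25 and Slc25a30 were higher and Slc25a36 lower after IRI in both genotypes, 4 of the 15 called in either. These counts and correlations were not computed over all genes, so the likeness of the genotypes is not shown to be particular to the carriers. A carrier called in a single genotype is not shown to differ between them: in the interaction of genotype and IRI, edgeR called 0 carriers and 0% of all genes tested.

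**Figure D2:**
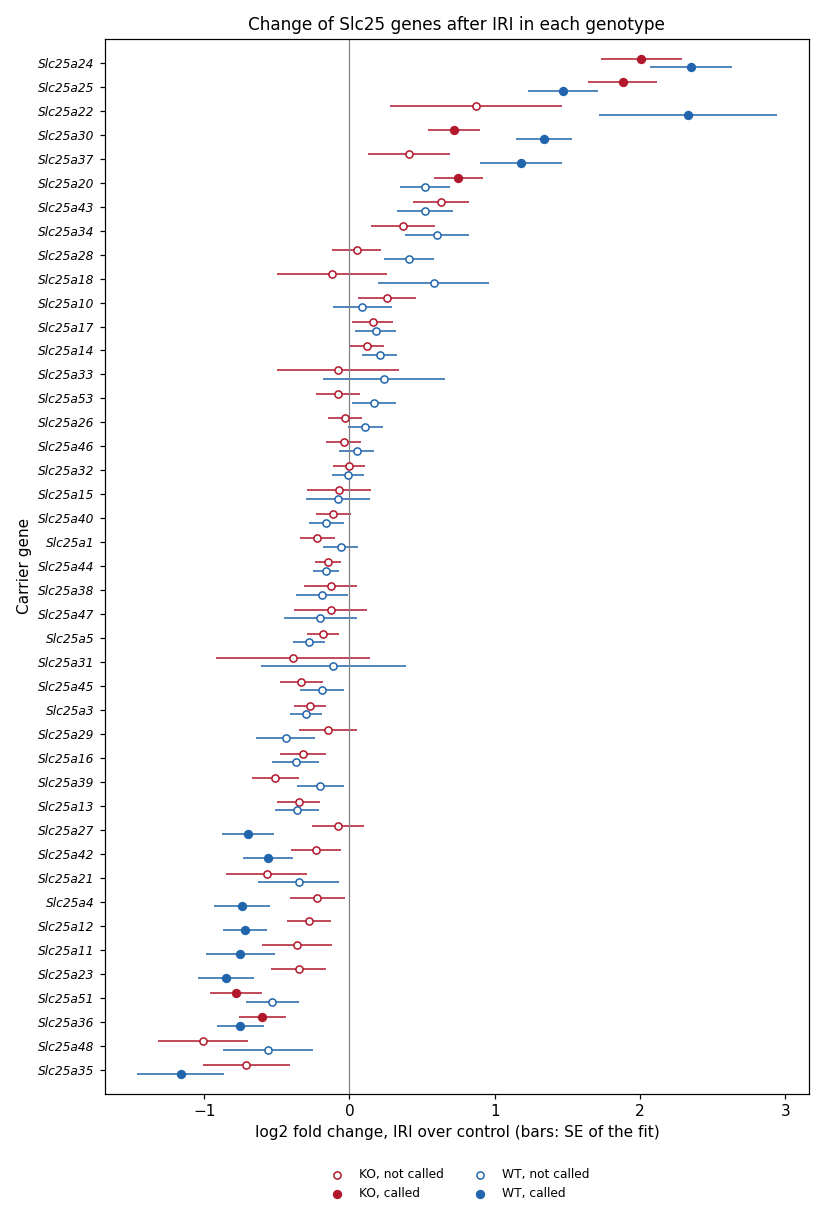
Log2 fold change of 43 of the 44 tested carrier genes after IRI over control, for KO and WT kidneys, with the standard error of the fit as bars; filled symbols passed the test at adjusted p under 0.05 and open ones did not. Slc25a24 (2.01 in KO, 2.35 in WT) and Slc25a25 (1.88 in KO, 1.47 in WT) lie far above 0 in both genotypes.

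The ATP-Mg/phosphate carriers, which exchange ATP-Mg for phosphate and are opened by cytosolic calcium, set the size of the adenine nucleotide pool in the matrix. Of the 3 that were tested, Slc25a24 and Slc25a25 rose after IRI in both genotypes, and Slc25a23 fell in WT kidneys. Slc25a24 (ENSMUSG00000040322, mm10 chr3:109123149-109168457, + strand) stood at 21.1, 37.98 and 26.2 CPM in KO IRI kidneys, against 8.98, 6.03 and 6.16 CPM in KO control kidneys. It stood at 44.4, 22.9 and 38.1 CPM in WT IRI kidneys, against 6.99, 6.72 and 6.92 CPM in WT control kidneys. In both genotypes every library after IRI lay far above every control library. On the log2 scale the change was 2.01 (edgeR adjusted p = 0.00498, SE 0.28) in KO and 2.35 (edgeR adjusted p = 0.00139, SE 0.28) in WT, and the WT call held in each of the 22 alternatives run. The call in KO kidneys was lost without both adrenal-positive libraries (log2 fold change 1.87, edgeR adjusted p = 0.0654). KO IRI replicate 2, with the most adrenal RNA, was the highest of its group for Slc25a24, while replicate 1, which also held adrenal RNA, was the lowest. Between KO libraries of like Y-linked level, the log2 ratio of IRI over control was 1.54 at the low level (KO IRI replicate 3 over KO control replicate 1) and 2.64 at the high level (KO IRI replicate 2 over the mean of KO control replicates 2 and 3). Each such ratio rests on 1 library after IRI, at the high level the one with the most adrenal RNA. Of the 15 carriers called in either genotype, 13 had ratios of the same sign at both levels. Some were called from these same KO libraries, so agreement in sign is partly built in, and its share over all genes was not computed. At the low level the ratio was near 0 for Slc25a4 (-0.03, against -0.55 at the high level) and Slc25a11 (-0.09 against -0.80). The ratios of Slc25a42 were 0.38 at the low and -0.75 at the high level, and those of Slc25a27 were -0.48 and 0.07.

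Slc25a25 (ENSMUSG00000026819, mm10 chr2:32414487-32451445, - strand) stood at 115, 107 and 178 CPM in KO IRI kidneys, against 45.04, 37.2 and 26.7 CPM in KO control kidneys. It stood at 156, 127 and 167 CPM in WT IRI kidneys, against 58.96, 44.2 and 58.7 CPM in WT control kidneys. The groups did not overlap in either genotype, and KO control replicate 3 was the lowest library of all. Its log2 fold change was 1.88 (edgeR adjusted p = 0.00418, SE 0.24) in KO and 1.47 (edgeR adjusted p = 0.00378, SE 0.24) in WT, and both calls held in each of the 22 alternatives run. Between KO libraries of like Y-linked level the log2 ratio was 1.99 at the low level and 1.75 at the high level.

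Slc25a23 (ENSMUSG00000046329, mm10 chr17:57043711-57059863, - strand) stood at 33.7, 23.6 and 30.6 CPM in KO IRI kidneys, against 37.8, 35.5 and 38.95 CPM in KO control kidneys. It stood at 19.97, 32.1 and 19.04 CPM in WT IRI kidneys, against 43.96, 42.7 and 41.5 CPM in WT control kidneys. The libraries after IRI were below the control libraries in both genotypes. The fitted log2 fold change was -0.85 (edgeR adjusted p = 0.0133, SE 0.19) in WT, a call lost without WT IRI replicate 1 (edgeR adjusted p = 0.054). In KO it was -0.35 (edgeR adjusted p = 0.304, SE 0.19).

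As shares of the length-scaled counts of the 3 genes, which do not depend on how libraries are scaled, Slc25a23 held 23.4%, 15.3% and 16.0% in KO IRI kidneys, against 46.1%, 50.8% and 58.7% in KO control kidneys. It held 10.3%, 21% and 10% in WT IRI kidneys, against 46.5%, 51.6% and 45.3% in WT control kidneys. The gene with the largest share was Slc25a25 in all 6 libraries after IRI and Slc25a23 in all 6 control libraries. These shares are a description and were not tested.

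**Figure D3:**
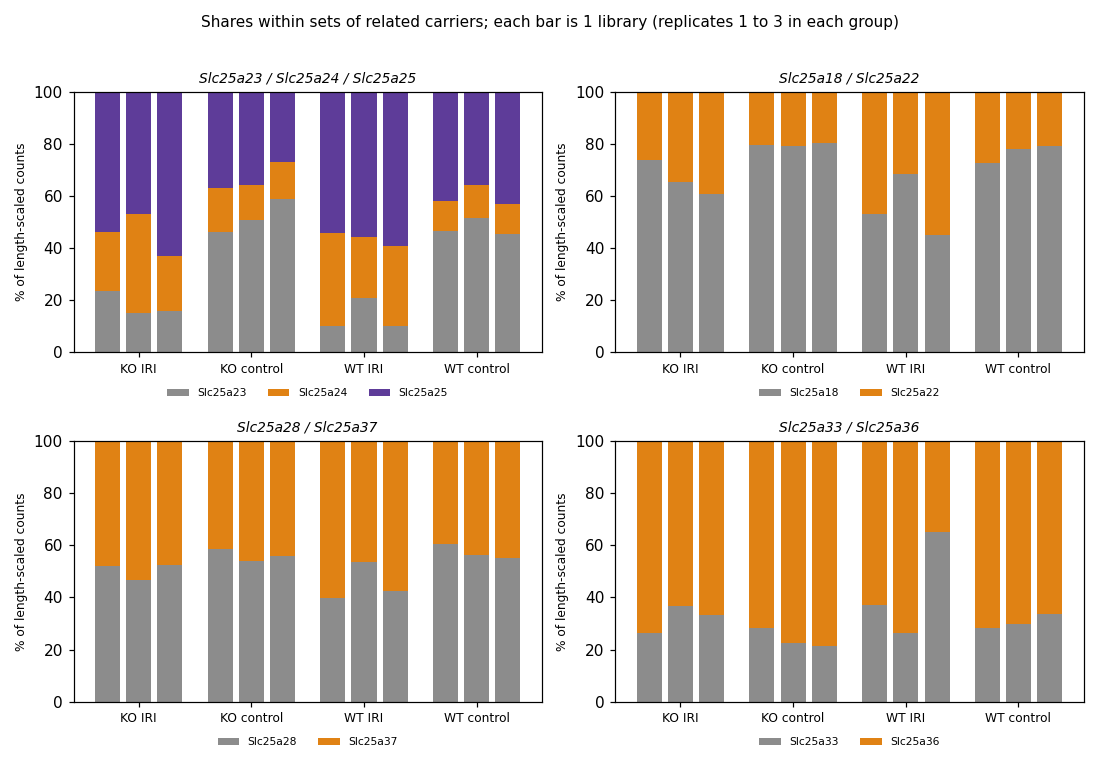
Share of the length-scaled counts held by each gene within 4 sets of related carriers, in percent, with 1 bar per library and replicates 1 to 3 from left to right in each group. Slc25a23 (grey, first panel) holds 10% to 23.4% after IRI and 45.3% to 58.7% in control kidneys.

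The sequences before a RefSeq start of transcription are shown for the 4 carriers called in both genotypes. Other carriers, such as Slc25a20 and Slc25a51, moved the same way in both genotypes without passing in both. They are RefSeq sequences on GRCm38.p6 (the build of mm10), 250 bases long and ending at the base before a start, printed 5′ to 3′ on the strand of the gene. Capitals mark a full cAMP response element (TGACGTCA) or an E-box (CACGTG). Slc25a24 is given at chr3:109122899-109123148 on the + strand. Slc25a25 is given at chr2:32424067-32424316 on the - strand, 1 of 3 RefSeq starts of the gene, chosen because it holds a motif. Slc25a30 is given at chr14:75787038-75787287 on the - strand and Slc25a36 at chr9:97111042-97111291 on the - strand.
Slc25a24: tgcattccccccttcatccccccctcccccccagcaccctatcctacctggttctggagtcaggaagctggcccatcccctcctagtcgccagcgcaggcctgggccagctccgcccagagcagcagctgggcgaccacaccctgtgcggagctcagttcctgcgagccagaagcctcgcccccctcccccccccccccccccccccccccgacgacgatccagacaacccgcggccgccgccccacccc
Slc25a25: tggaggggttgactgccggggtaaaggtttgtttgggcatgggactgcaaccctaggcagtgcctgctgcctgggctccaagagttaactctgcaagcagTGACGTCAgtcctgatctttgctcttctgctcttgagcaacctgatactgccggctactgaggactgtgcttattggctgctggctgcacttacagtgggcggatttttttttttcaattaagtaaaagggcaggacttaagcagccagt
Slc25a30: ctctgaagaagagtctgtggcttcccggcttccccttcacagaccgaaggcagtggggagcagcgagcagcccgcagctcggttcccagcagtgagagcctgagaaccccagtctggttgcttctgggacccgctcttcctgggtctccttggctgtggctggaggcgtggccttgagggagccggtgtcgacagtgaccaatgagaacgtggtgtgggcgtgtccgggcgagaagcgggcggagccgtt
Slc25a36: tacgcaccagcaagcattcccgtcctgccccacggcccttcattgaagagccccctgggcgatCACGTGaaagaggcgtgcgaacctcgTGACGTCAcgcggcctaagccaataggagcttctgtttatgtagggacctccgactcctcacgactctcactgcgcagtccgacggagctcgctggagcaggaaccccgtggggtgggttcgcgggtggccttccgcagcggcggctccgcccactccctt

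The cAMP response element began 150 bases before this start of Slc25a25 and 161 bases before the RefSeq start of Slc25a36. By GENCODE M21, Slc25a36 begins within its printed sequence, at chr9:97111157, and the printed sequence of Slc25a25 lies inside the gene. Of 32851 promoters in the RefSeq table, 1.55% held it on either strand. The promoter table held 46 promoters of 36 carriers, and Slc25a25 and Slc25a36 were the only ones of these with the element, although the first rose and the second fell after IRI. The first transcribed bases after the shown start of Slc25a25 were not found in the GENCODE M21 transcripts, and the counts do not tell the starts of a gene apart. The E-box in Slc25a36 began 187 bases before the RefSeq start and does not overlap the cAMP response element. An E-box was found in 8 of the 46 carrier promoters, belonging to 7 carriers, and in 6.02% of all promoters. The 8 include overlapping promoters of Slc25a14. The AP-1 element (TGANTCA) was found in 2 of the 46, those of Slc25a11 and Slc25a13, and in 6.75% of all promoters. It shares bases with an E-box in Slc25a13. The NRF1 element (a palindromic repeat of 10 bases) was found in 2 of the 46, those of Slc25a3 and Slc25a31, and in 3.74% of all promoters. The element of the estrogen-related receptors (TCAAGGTCA) was found in 0 of the 46 and in 0.387% of all promoters. Neither printed sequence of Slc25a24 and Slc25a30 held any of the 5 motifs. The bases of the Slc25a24 promoter were 72.8% G or C, against 51.6% for the printed sequence of Slc25a25, 64.4% for Slc25a30, 64.4% for Slc25a36 and a median of 52.4% over all promoters. The promoters at the other starts of Slc25a25 had 60.0% and 52.0%.

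**Figure D4:**
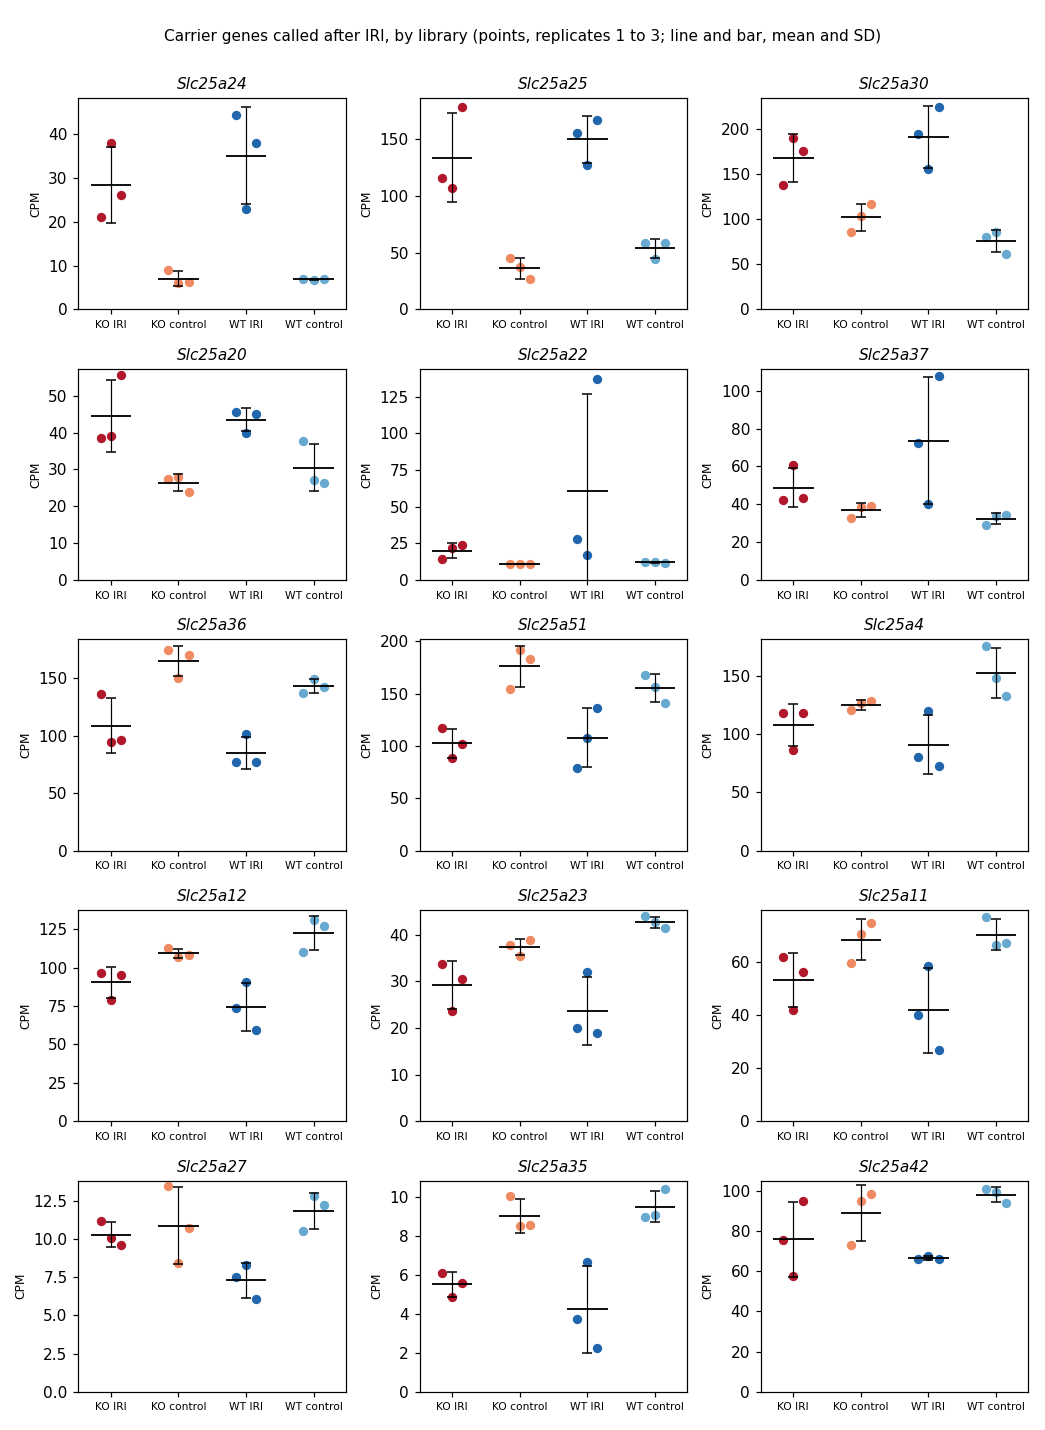
CPM in each library for the carrier genes that passed the test after IRI in either genotype, with points for libraries, lines for means and bars for SD (n = 3 per group); axes start at 0, which cuts the lower bar of Slc25a22 in WT IRI kidneys. The points of Slc25a24 and Slc25a25 after IRI lie above all control points in both genotypes.

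The ADP/ATP carriers export ATP from the matrix in exchange for ADP, and Slc25a3 imports the phosphate from which ATP is made. Slc25a4 (ENSMUSG00000031633, mm10 chr8:46206797-46211284, - strand), the form known from heart and muscle, fell in WT kidneys. It stood at 80.4, 119.9 and 72.5 CPM in WT IRI kidneys, against 176, 148 and 133 CPM in WT control kidneys. The WT groups did not overlap, and the log2 fold change was -0.74 (edgeR adjusted p = 0.0219, SE 0.19). The call was lost without WT control replicate 1 or 2 or WT IRI replicate 1 or 3, with edgeR adjusted p from 0.0548 to 0.076. In KO IRI kidneys Slc25a4 stood at 118, 86.6 and 118 CPM, against 120.5, 126 and 128 CPM in KO control kidneys, a log2 change of -0.22 (edgeR adjusted p = 0.562, SE 0.19). Only KO IRI replicate 2 lay well below the KO control libraries. That library had the most adrenal RNA and, within its group, the lowest proximal tubule sum (4275 CPM) and the highest Y-linked sum (227 CPM). The part of these in its level of Slc25a4 was not tested.

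Slc25a5 stood at 299.5, 269.7 and 309 CPM in KO IRI kidneys and 306, 340.0 and 351 CPM in KO control kidneys, with 264, 308 and 324 CPM in WT IRI kidneys and 395, 352 and 343 CPM in WT control kidneys. The log2 fold change after IRI was -0.18 (edgeR adjusted p = 0.384, SE 0.11) in KO and -0.28 (edgeR adjusted p = 0.0952, SE 0.11) in WT. Gm5256, Gm5529 and Gm5560 in the table are nearly identical to Slc25a5 and had counts summing to 18.51% of its own, so how reads were split among them is uncertain. Slc25a3 stood at 315, 293 and 320.0 CPM in KO IRI kidneys and 342, 386 and 389 CPM in KO control kidneys, with 286, 337 and 352 CPM in WT IRI kidneys and 431, 402 and 369 CPM in WT control kidneys. Its libraries after IRI were below the control libraries in both genotypes, with a log2 change of -0.27 (edgeR adjusted p = 0.187, SE 0.11) in KO and -0.30 (edgeR adjusted p = 0.0737, SE 0.11) in WT, and neither difference passed the test. In all, 2 of 7 tested genes of this role rose and 0 fell in KO kidneys, and 2 rose and 2 fell in WT kidneys, with median log2 fold changes of -0.22 and -0.28.

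The carriers of citric acid cycle intermediates, aspartate and glutamate move the solutes of the malate-aspartate shuttle and of the citrate and oxoglutarate exchanges. Of 8 tested, 0 passed in KO kidneys, while 1 rose and 2 fell in WT kidneys, with median log2 fold changes of -0.25 and -0.20. Slc25a12 (ENSMUSG00000027010, mm10 chr2:71271063-71367749, - strand), an aspartate/glutamate carrier that binds calcium, stood at 96.8, 78.99 and 95.4 CPM in KO IRI kidneys, against 113, 107 and 108 CPM in KO control kidneys. It stood at 73.6, 90.5 and 59.1 CPM in WT IRI kidneys, against 110.1, 131 and 127 CPM in WT control kidneys. The libraries after IRI were below the control libraries in both genotypes. It fell in WT, with a log2 change of -0.72 (edgeR adjusted p = 0.00932, SE 0.15), and the change in KO was -0.28 (edgeR adjusted p = 0.299, SE 0.15). The call in WT held without any single library but was lost with the Y-linked covariate (log2 fold change -0.55, edgeR adjusted p = 0.17).

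Its paralog Slc25a13, the form of liver and kidney, stood at 192, 139.7 and 157 CPM in KO IRI kidneys and 188, 216 and 219 CPM in KO control kidneys, with 134, 149.7 and 178 CPM in WT IRI kidneys and 176, 208 and 207 CPM in WT control kidneys. The groups overlapped in both genotypes, and log2 fold changes of -0.35 (edgeR adjusted p = 0.182, SE 0.15) in KO and -0.36 (edgeR adjusted p = 0.0951, SE 0.15) in WT did not pass. Without WT IRI replicate 3 the change in WT was called (log2 fold change -0.47, edgeR adjusted p = 0.0475). Slc25a11 (ENSMUSG00000014606, mm10 chr11:70644196-70647479, - strand), which exchanges malate for oxoglutarate, stood at 40.02, 58.6 and 26.9 CPM in WT IRI kidneys, against 77.2, 66.8 and 67.3 CPM in WT control kidneys. It fell in WT, with a log2 change of -0.75 (edgeR adjusted p = 0.0462, SE 0.24), with WT IRI replicate 3 lowest. This call was lost without any of the 6 WT libraries other than WT IRI replicate 2 and without any KO library other than KO IRI replicate 2, with edgeR adjusted p from 0.0519 to 0.122. In KO kidneys Slc25a11 stood at 62.04, 41.9 and 56.2 CPM after IRI and 59.9, 70.9 and 74.8 CPM in controls, with overlapping groups (-0.36, edgeR adjusted p = 0.416). The opposite-strand gene Rnf167 covers 8.9% of its exonic bases, and the sources used here do not say whether counting used the strand.

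Slc25a22 (ENSMUSG00000019082, mm10 chr7:141429744-141437892, - strand), a carrier of glutamate with protons, stood at 27.9, 17.1 and 137 CPM in WT IRI kidneys, against 12.2, 12.1 and 11.9 CPM in WT control kidneys. It rose in WT, with a log2 change of 2.33 (edgeR adjusted p = 0.0227, SE 0.61), and WT IRI replicate 3 stood far above the other 2. Without that library the log2 fold change was 0.90 (SE 0.22, edgeR adjusted p = 0.0259). The call was lost without any of the WT control libraries, with edgeR adjusted p from 0.0689 to 0.0771. In KO kidneys Slc25a22 stood at 14.2, 22.1 and 23.9 CPM after IRI and 10.8, 10.99 and 11.1 CPM in controls. These KO groups did not overlap, with a log2 change of 0.87 (edgeR adjusted p = 0.422, SE 0.59), which became a call without WT IRI replicate 3 (0.87, edgeR adjusted p = 0.0237).

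The citrate carrier Slc25a1 stood at 44.98, 46.8 and 51.97 CPM in KO IRI kidneys and 53.2, 51.97 and 62.3 CPM in KO control kidneys, with 50.6, 46.1 and 47.9 CPM in WT IRI kidneys and 59, 45.2 and 46.7 CPM in WT control kidneys. The log2 fold change was -0.22 (edgeR adjusted p = 0.318, SE 0.12) in KO, where the highest IRI and the lowest control library were equal to the digits given, and -0.06 (edgeR adjusted p = 0.736, SE 0.12) in WT, where the groups overlapped. The dicarboxylate carrier Slc25a10, which exchanges malate or succinate for phosphate, stood at 213, 140.1 and 196 CPM in KO IRI kidneys and 126, 167 and 166 CPM in KO control kidneys, with 167, 196 and 126 CPM in WT IRI kidneys and 177, 144 and 137 CPM in WT control kidneys. It overlapped between groups in both genotypes, with changes of 0.26 (edgeR adjusted p = 0.492, SE 0.20) in KO and 0.09 (edgeR adjusted p = 0.753, SE 0.20) in WT.

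Carriers of cofactors, acyl groups and nucleotides counted 10 tested genes, of which 1 rose and 2 fell in KO kidneys and 0 rose and 2 fell in WT kidneys. Their median log2 fold changes were -0.15 in KO and -0.19 in WT. Slc25a20 (ENSMUSG00000032602, mm10 chr9:108662088-108684641, + strand), which brings acylcarnitines to the matrix for fatty acid oxidation, stood at 38.6, 39.1 and 55.7 CPM in KO IRI kidneys, against 27.4, 28.03 and 23.8 CPM in KO control kidneys. It stood at 45.6, 39.8 and 45.05 CPM in WT IRI kidneys, against 37.8, 27.2 and 26.3 CPM in WT control kidneys. Libraries after IRI and control libraries did not overlap in either genotype. It rose in KO, with a log2 change of 0.75 (edgeR adjusted p = 0.032, SE 0.17), and the change in WT was 0.52 (edgeR adjusted p = 0.0536, SE 0.17). The KO call was lost without any of the KO control libraries and without KO IRI replicate 2 or 3, with edgeR adjusted p from 0.0505 to 0.132. The WT change was called without WT control replicate 1 (0.70, edgeR adjusted p = 0.0307), WT IRI replicate 2 (0.57, 0.0402) or KO IRI replicate 3 (0.51, 0.0386).

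The summed level of 5 brown fat genes was 85.5, 134 and 160 CPM in KO IRI kidneys and 134, 24.4 and 51.8 CPM in KO control kidneys, and 49.3, 39.5 and 94.2 CPM in WT IRI kidneys against 99.4, 15.9 and 49.8 CPM in WT control kidneys. Fabp4 made up the largest part of this sum in every library. The library with the highest sum was also the highest for Slc25a20 in the KO IRI group (replicate 3) and the WT control group (replicate 1). This was not so in the KO control group (replicate 1) or the WT IRI group (replicate 3). Within the KO IRI group Ucp1 was highest in replicate 1 (9.78 CPM against 9.08 CPM in replicate 3), and the other genes of the list were highest in replicate 3. The part of such tissue in the levels of Slc25a20 was not tested.

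Slc25a36 (ENSMUSG00000032449, mm10 chr9:97074961-97111157, - strand), a carrier of pyrimidine nucleotides into the matrix, fell in both genotypes. It stood at 136, 94.05 and 95.8 CPM in KO IRI kidneys, against 175, 149.7 and 170.0 CPM in KO control kidneys. It stood at 76.8, 101 and 77.3 CPM in WT IRI kidneys, against 137, 149 and 142 CPM in WT control kidneys. No overlap was seen between the groups in either genotype. On the log2 scale the change was -0.60 (edgeR adjusted p = 0.0484, SE 0.16) in KO and -0.75 (edgeR adjusted p = 0.0106, SE 0.16) in WT. The WT call held without any single library but was lost with the Y-linked covariate (log2 fold change -0.66, edgeR adjusted p = 0.151). The KO call was lost without any single library other than WT IRI replicate 2 or 3 and KO IRI replicate 1, with edgeR adjusted p from 0.0537 to 0.185, and also with library sizes alone (0.101) and with the Y-linked covariate (0.0566). The nearly identical Gm13217 had 9.17% as many counts as Slc25a36.

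Slc25a51 (ENSMUSG00000045973, mm10 chr4:45395923-45408766, - strand), which brings NAD+ into the matrix, stood at 117, 88.8 and 102 CPM in KO IRI kidneys, against 154, 192 and 183 CPM in KO control kidneys. It stood at 79.4, 108 and 136 CPM in WT IRI kidneys, against 168, 156 and 141 CPM in WT control kidneys. The groups did not overlap in either genotype, and the gene fell in KO, with a log2 change of -0.78 (edgeR adjusted p = 0.0325, SE 0.18). The change in WT was -0.53 (edgeR adjusted p = 0.0587, SE 0.18), and was called without WT IRI replicate 3 (-0.73, edgeR adjusted p = 0.0183). The KO call was lost without WT control replicate 2 or 3, KO control replicate 2 or 3, or KO IRI replicate 2 or 3, with edgeR adjusted p from 0.05 to 0.126.

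Slc25a42 (ENSMUSG00000002346, mm10 chr8:70184340-70212305, - strand), a carrier of coenzyme A, stood at 65.8, 67.7 and 65.8 CPM in WT IRI kidneys, against 101, 99.2 and 93.8 CPM in WT control kidneys. The WT libraries after IRI lay close together below the controls, and the gene fell, with a log2 change of -0.56 (edgeR adjusted p = 0.0356, SE 0.17). This call was lost without WT control replicate 1, 2 or 3, WT IRI replicate 1 or 3, KO control replicate 2 or KO IRI replicate 1, with edgeR adjusted p from 0.0504 to 0.0973. In KO kidneys it stood at 75.2, 57.5 and 94.9 CPM after IRI and 72.8, 95.03 and 98.5 CPM in controls, with overlapping groups (-0.23, edgeR adjusted p = 0.466). Carriers of this role for S-adenosylmethionine (Slc25a26), folate (Slc25a32), pyrimidine nucleotides (Slc25a33), coenzyme A or its precursors (Slc25a16) and peroxisomal cofactors (Slc25a17) passed in neither genotype. Their log2 fold changes ran from -0.32 (Slc25a16) to 0.16 (Slc25a17) in KO and from -0.37 (Slc25a16) to 0.24 (Slc25a33) in WT.

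The mitoferrins Slc25a37 and Slc25a28 import iron for the making of heme and iron-sulfur clusters, and Slc25a39 and Slc25a40 import glutathione. Of these 4 tested genes, 0 passed in KO kidneys and 1 rose in WT kidneys. Slc25a37 (ENSMUSG00000034248, mm10 chr14:69241848-69285112, - strand), the mitoferrin known from red cell precursors, stood at 42.3, 60.6 and 43.5 CPM in KO IRI kidneys, against 32.6, 38.6 and 39.2 CPM in KO control kidneys. It stood at 72.6, 40.4 and 108 CPM in WT IRI kidneys, against 28.99, 33.9 and 34.5 CPM in WT control kidneys. Libraries after IRI and control libraries did not overlap in either genotype, and WT IRI replicate 2 was well below the other WT IRI libraries. It rose in WT, with a log2 change of 1.18 (edgeR adjusted p = 0.0169, SE 0.28), a call lost without WT control replicate 1, 2 or 3 (edgeR adjusted p from 0.0547 to 0.0608). With the Y-linked covariate the log2 fold change was 0.71. In KO it was 0.41 (edgeR adjusted p = 0.435, SE 0.28).

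Slc25a28, the mitoferrin of other cells, stood at 28.4, 32.8 and 30 CPM in KO IRI kidneys and 28.9, 28.3 and 31.04 CPM in KO control kidneys, with 30.01, 28.9 and 49.03 CPM in WT IRI kidneys and 27.8, 27.2 and 26.4 CPM in WT control kidneys. WT IRI replicate 3 stood above all others, and neither change passed (0.05 in KO, edgeR adjusted p = 0.916, and 0.41 in WT, edgeR adjusted p = 0.111). The change in WT was 0.12 without WT IRI replicate 3 and was called without WT IRI replicate 2 (0.54, edgeR adjusted p = 0.0314). Slc25a37 held 48.1%, 53.5% and 47.4% of the length-scaled counts of the pair in KO IRI kidneys, against 41.3%, 45.9% and 44.0% in KO control kidneys. It held 60.1%, 46.5% and 57.7% in WT IRI kidneys, against 39.4%, 43.7% and 44.9% in WT control kidneys. In both genotypes the share of Slc25a37 was above that of the control libraries in all 3 libraries after IRI.

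Slc25a39 stood at 159.6, 150.3 and 167 CPM in KO IRI kidneys and 167, 253 and 258 CPM in KO control kidneys, with 171, 174 and 175 CPM in WT IRI kidneys and 224, 194 and 179 CPM in WT control kidneys. KO control replicate 1 lay with the KO IRI libraries and below the other KO control libraries. Its log2 fold change was -0.51 (edgeR adjusted p = 0.0779, SE 0.16) in KO and -0.20 (edgeR adjusted p = 0.361, SE 0.16) in WT. Without KO control replicate 1 the KO change was called (-0.69, edgeR adjusted p = 0.00728). The paralog Slc25a40 held 2.46% to 4.03% of the length-scaled counts of the pair in all libraries.

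Slc25a14, Slc25a27 and Slc25a30 resemble the uncoupling proteins in sequence. Slc25a30 (ENSMUSG00000022003, mm10 chr14:75760117-75787037, - strand) rose in both genotypes. It stood at 138, 189.8 and 175 CPM in KO IRI kidneys, against 86.2, 103 and 116 CPM in KO control kidneys. It stood at 194, 155 and 224 CPM in WT IRI kidneys, against 79.8, 85.3 and 61.7 CPM in WT control kidneys. No overlap was seen between the groups in either genotype. The fitted log2 fold change was 0.72 (edgeR adjusted p = 0.044, SE 0.18) in KO and 1.34 (edgeR adjusted p = 0.0023, SE 0.19) in WT. The WT call held in each of the 22 alternatives run. The KO call was lost without WT control replicate 1, 2 or 3, WT IRI replicate 1, KO control replicate 1, 2 or 3, or KO IRI replicate 2 or 3, with edgeR adjusted p from 0.0506 to 0.179, and also with RLE scaling (0.0517).

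Slc25a27 (ENSMUSG00000023912, mm10 chr17:43641891-43667214, - strand), known from brain, stood at 7.496, 8.296 and 6.04 CPM in WT IRI kidneys, against 10.5, 12.8 and 12.2 CPM in WT control kidneys. It fell in WT, with a log2 change of -0.70 (edgeR adjusted p = 0.0221, SE 0.18), and the WT groups did not overlap. The call was lost without WT control replicate 2 or 3 or WT IRI replicate 1 or 3, with edgeR adjusted p from 0.0516 to 0.0796. In KO kidneys it stood at 11.2, 10.02 and 9.597 CPM after IRI and 13.4, 8.39 and 10.7 CPM in controls, a spread that covers the KO IRI values (-0.08, edgeR adjusted p = 0.855). Slc25a14 did not pass, with log2 fold changes of 0.12 in KO and 0.21 in WT.

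Carriers of amino acids and choline counted 5 tested genes, and 0 of them passed after IRI in either genotype by edgeR. The log2 fold changes of the ornithine carrier Slc25a15 were -0.07 (edgeR adjusted p = 0.905, SE 0.22) in KO and -0.08 (edgeR adjusted p = 0.802, SE 0.22) in WT. Those of Slc25a48, which has been linked to choline import, were -1.01 (edgeR adjusted p = 0.0767, SE 0.31) in KO, where the groups did not overlap, and -0.56 (edgeR adjusted p = 0.203, SE 0.31) in WT. The values of the basic amino acid carrier Slc25a29, the glycine carrier Slc25a38 and the branched-chain amino acid carrier Slc25a44 lay between -0.15 and -0.13 in KO and between -0.44 and -0.16 in WT. Slc25a46, a member of the family in the outer membrane that shapes mitochondria, changed by -0.04 in KO and 0.05 in WT on the log2 scale and did not pass.

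Of 6 tested members given no substrate here, 0 passed in KO kidneys and 1 fell in WT kidneys. Slc25a35 (ENSMUSG00000018740, mm10 chr11:68968131-68974365, + strand) stood at 6.12, 4.86 and 5.59 CPM in KO IRI kidneys, against 10.1, 8.52 and 8.56 CPM in KO control kidneys. It stood at 3.74, 6.69 and 2.28 CPM in WT IRI kidneys, against 8.99, 9.11 and 10.4 CPM in WT control kidneys. The groups did not overlap in either genotype. It fell in WT, with a log2 change of -1.16 (edgeR adjusted p = 0.0218, SE 0.30), and the change in KO was -0.71 (edgeR adjusted p = 0.18, SE 0.30). The WT call was lost without WT control replicate 2 or 3 or WT IRI replicate 1, with edgeR adjusted p from 0.0588 to 0.0749. The KO change was called without WT IRI replicate 2 (edgeR adjusted p = 0.0379) or 3 (0.0366). The opposite-strand gene Rangrf covers 31.3% of the exonic bases of Slc25a35, so that reads of the pair may have been counted together. The other 5, Slc25a34, Slc25a43, Slc25a45, Slc25a47 and Slc25a53, had log2 fold changes from -0.33 (Slc25a45) to 0.63 (Slc25a43) in KO and from -0.20 (Slc25a47) to 0.60 (Slc25a34) in WT.

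The spread among replicates differed between groups. The median over carriers of the SD of log2 CPM was 0.17 in KO IRI kidneys, 0.15 in KO control kidneys, 0.31 in WT IRI kidneys and 0.13 in WT control kidneys. The library farthest from its group's median most often was replicate 2 in KO IRI kidneys (18 of the 44 carriers), replicate 1 in KO control kidneys (25), replicate 3 in WT IRI kidneys (21) and replicate 1 in WT control kidneys (23). Besides Slc25a22, WT IRI replicate 3 was the highest of its group for Slc25a18, a second glutamate carrier, with 35.7 CPM against 10.04 and 11.8 CPM in WT IRI replicates 1 and 2, and for Slc25a33 with 28.4 CPM against 8.82 and 7.18 CPM. It was the lowest for Slc25a15 with 73.8 CPM against 148 and 139.0 CPM. These 3 genes were chosen after their values were seen. Within its group the same library had the highest summed level of Y-linked genes and, at 6052 CPM, of 6 tubular injury genes, against 5362 and 3507 CPM in WT IRI replicates 1 and 2. Among the injury genes it was highest for Krt20 (809 CPM against 173 and 106 CPM), Sox9 and Lcn2. It was not highest for Spp1 (4070 CPM against 4150 CPM in replicate 1), Havcr1 (720 CPM against 769 CPM in replicate 1) or Vcam1. The part of the Y-linked and injury levels in the carrier levels was not tested.

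Between genotypes, edgeR called 0 of 44 carriers in either condition, where 0.0104% of all genes tested (2 genes) were called after IRI and 0.0104% (2 genes) in control kidneys, 0.0052% higher and 0.0052% lower in each. DESeq2 called 0 carriers in each as well. At an unadjusted p under 0.05 the edgeR test gave 3 carriers after IRI and 3 in control kidneys, among 2214 and 1030 genes in all. The median log2 fold change over the carriers was 0.00 in both conditions, and -0.01 over all genes. After IRI the KO libraries lay above all WT libraries for 1 carrier and below for 1, against 6.28% and 5.95% of all genes. In control kidneys they lay above for 7 and below for 4, against 6.34% and 10.1% of all genes. In percent of the carriers tested these are 2.27% and 2.27% after IRI and 15.9% and 9.09% in control kidneys.

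**Figure D5:**
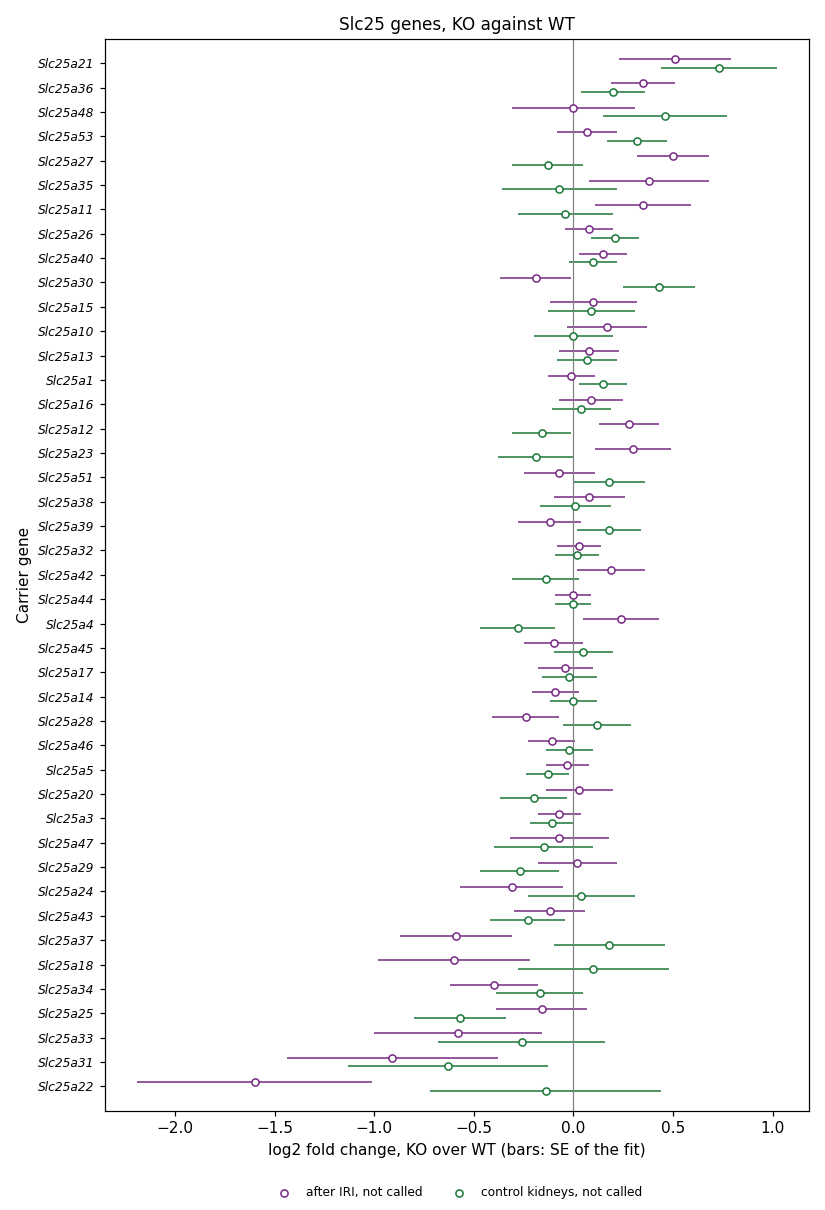
Log2 fold change of 43 of the 44 tested carrier genes in KO over WT kidneys, after IRI and in control kidneys, with the standard error of the fit as bars; all symbols are open because none passed the test. Slc25a22 after IRI lies farthest from 0, at -1.60, and Slc25a21 is the highest in control kidneys, at 0.73.

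After IRI the carriers with the smallest p were Slc25a27, Slc25a22 and Slc25a36. Slc25a27 stood at 11.2, 10.02 and 9.597 CPM in KO IRI kidneys, against 7.496, 8.296 and 6.04 CPM in WT IRI kidneys, with no overlap and a log2 change of 0.50 (edgeR adjusted p = 0.422, SE 0.18). Slc25a22 had -1.60 (edgeR adjusted p = 0.422, SE 0.59) and Slc25a36 had 0.35 (edgeR adjusted p = 0.433, SE 0.16), both with overlapping groups. Leaving out 1 library at a time gave -2.04 to -0.17 for Slc25a22, the smallest without WT IRI replicate 3, and 0.16 to 0.50 for Slc25a36, the smallest without KO IRI replicate 1. Without WT IRI replicate 2, edgeR called 876 genes and 4 carriers between the genotypes after IRI. These were Slc25a35 (log2 fold change 0.88, edgeR adjusted p = 0.0488) and Slc25a23 (0.59, 0.0486), higher in KO IRI kidneys, and Slc25a22 (-2.04, 0.0467) and Slc25a37 (-0.88, 0.0436), lower in KO IRI kidneys. All 4 were among the carriers called after IRI in WT kidneys, and WT IRI replicate 2 was for each the WT IRI library nearest to the WT controls. Both comparisons use the WT IRI libraries, so this overlap is partly built in and is not a separate result. WT IRI replicate 2 was also the one of the WT IRI libraries with the highest proximal tubule level, 7468 CPM against 3910 and 5339 CPM, and the lowest Y-linked level. The part of these in the genotype comparison was not tested.

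In control kidneys the smallest p were those of Slc25a21, Slc25a25 and Slc25a30. Slc25a21, the oxodicarboxylate carrier of lysine and tryptophan breakdown, stood at 273, 406 and 451 CPM in KO control kidneys, against 186, 262 and 234 CPM in WT control kidneys. KO control replicate 1, which also had the lowest Y-linked level of its group, was just above the highest WT library and the other KO libraries lay well above it. The log2 fold change was 0.73 (edgeR adjusted p = 0.851, SE 0.29). Slc25a30 had 0.43 (edgeR adjusted p = 0.892, SE 0.18), without overlap, and Slc25a25 had -0.57 (edgeR adjusted p = 0.879, SE 0.23), with overlap. In the same fit after IRI, Slc25a21 stood at 294, 199.7 and 267 CPM in KO IRI kidneys and 220.0, 211 and 104 CPM in WT IRI kidneys, with overlapping groups and a log2 change of 0.51 (edgeR adjusted p = 0.463, SE 0.28).

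The interaction asks whether the change after IRI in KO kidneys differed from that in WT kidneys. At an unadjusted p under 0.05 it gave 2 carriers of 44, among 1350 genes in all, and DESeq2 called 0 carriers and 32 genes in all. The smallest p were those of Slc25a27, with an interaction of 0.62 (edgeR adjusted p = 0.666, SE 0.26) on the log2 scale, Slc25a30 with -0.62 (edgeR adjusted p = 0.666, SE 0.26) and Slc25a12 with 0.45 (edgeR adjusted p = 0.666, SE 0.21). The widest standard error over the carriers was 0.83, for Slc25a22, whose interaction of -1.46 did not pass either (edgeR adjusted p = 0.666). Differences between genotypes as large as these may therefore have gone undetected, and not only in the most variable gene.

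Other genes that work with these carriers were counted in the same fits. Of 5 tested carriers of the family that bear other symbols, 1 rose in each genotype. This was Ucp2, an uncoupling protein paralog that moves dicarboxylates such as malate across the inner membrane, with log2 fold changes of 1.28 (edgeR adjusted p = 0.0225) in KO and 1.46 (edgeR adjusted p = 0.00655) in WT. Of 18 tested genes for other inner membrane transport, 0 passed in KO and 5 fell in WT. They were both subunits of the pyruvate carrier, Mpc1 (-0.52, edgeR adjusted p = 0.0103) and Mpc2 (-0.61, edgeR adjusted p = 0.0151), and the sideroflexins Sfxn2 (-1.46, edgeR adjusted p = 0.0129), Sfxn4 (-0.88, edgeR adjusted p = 0.0129) and Sfxn5 (-0.70, edgeR adjusted p = 0.0375). The median log2 fold change of this list was -0.20 in KO and -0.16 in WT.

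Of 9 tested genes of the TIM22 route, which inserts carriers into the inner membrane, 0 passed in KO and 1 rose in WT, the chaperone Timm10 (0.47, edgeR adjusted p = 0.0299). Of 4 genes of the outer membrane, 0 passed in KO and Tspo rose in WT (0.73, edgeR adjusted p = 0.00792). Among 7 tested enzymes of the malate-aspartate and carnitine shuttles, cytosolic Mdh1 fell in both genotypes, with log2 fold changes of -0.89 (edgeR adjusted p = 0.0197) in KO and -0.90 (edgeR adjusted p = 0.00825) in WT. Cpt2, which turns acylcarnitine from Slc25a20 back to acyl-CoA, rose in WT (0.79, edgeR adjusted p = 0.0187). No gene of these lists passed between genotypes or in the interaction by edgeR.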

How the data were processed

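Total RNA was depleted of ribosomal RNA, made into strand-marking libraries and sequenced from both ends, per the labels' protocols. Alignment used STAR and build mm10, per the submitters' processing notes. The sources used here do not give the counting tool, its strand setting or its annotation release. The authors deposited whole-number read counts per Ensembl gene, not normalized, with 1 column for each of 12 libraries, and 0 sample columns were left unmatched.

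Tests used the quasi-likelihood method of edgeR 4.0.16 (R 4.3.3). The filter filterByExpr (minimum count 10, minimum total 15) left 19218 of 42748 genes. Libraries were scaled by TMM, and 1 fit held all 12 of them, with each group as a coefficient. Tests were two-sided, with Benjamini-Hochberg adjustment over all 19218 genes and calls at adjusted p under 0.05. CPM use the TMM-scaled library size. SE, in the figures the standard error of the fit, was derived from the test and is approximate. It is the absolute log2 fold change divided by the square root of the F statistic of the quasi-likelihood test. Alternatives were DESeq2 1.42.0, RLE scaling, library sizes alone, other filters (none, or 1 CPM in 3 libraries), a replicate block, a Y-linked covariate, only the groups compared, and fits without certain libraries. The procedure was tested on simulated data.

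Positions, exon lengths and overlaps are from GENCODE M21 (mm10), in which all 47 genes were found. Promoters are from RefSeq (GRCm38.p6), with 36 of 47 genes matched. Nearly identical genes share at least 95% identity over 400 bases by BLAST 2.17.0. Libraries of 1 group differed by more than sampling noise. The labels do not say that replicate numbers pair samples, so they were not taken to do so. Same-numbered libraries did not deviate together (correlations of -0.42 to 0.08 over 18 pairs), which does not exclude pairing.

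The genes and lists were chosen with earlier results of these data known. Values per library are given for carriers called in any comparison at 1 CPM or more (up to 8 per direction), for the 3 smallest p in the genotype and interaction comparisons, and for 16 carriers named whatever their values (Slc25a1, Slc25a3, Slc25a4, Slc25a5, Slc25a10 to Slc25a13, Slc25a20, Slc25a24, Slc25a25, Slc25a28, Slc25a30, Slc25a37, Slc25a39 and Slc25a51). One carrier is counted among the 44 tested but is not reported here by itself or drawn. Skeletal muscle genes summed to 0.234 to 2.33 CPM per library.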

Additional observations from a re-analysis of the deposited data

How the results depend on the processing

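Counting error is small at 39074224 or more counts per library, and the spread between 3 libraries per group sets the precision. For the 22 carriers followed one by one after IRI and the 3 with the smallest p in each other comparison, 1030 values kept their direction and side of the threshold across the alternatives, 102 lost a call, 25 gained one and 6 turned in sign. Those 6 were not called in any of these fits. They were Slc25a27 after IRI in KO (0.10 without KO control replicate 1, -0.23 to 0.10 over the libraries left out), Slc25a28 after IRI in KO (-0.03 without KO IRI replicate 2, range -0.03 to 0.09), Slc25a42 after IRI in KO (0.08 without the adrenal-positive libraries), Slc25a1 after IRI in WT (0.07 without WT control replicate 1, range -0.13 to 0.07) and Slc25a10 after IRI in WT (-0.07 without both libraries whose Y-linked level was intermediate, and -0.06 without WT IRI replicate 2, range -0.06 to 0.25).

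The number of carriers called for IRI in KO was 6 as reported, 2 with the replicate block and 1 without the adrenal-positive libraries. For IRI in WT it was 13 as reported, 3 with the Y-linked covariate and 5 with only the WT groups in the fit. The replicate block gave 11 calls for IRI in WT and 0 between genotypes and for the interaction. Nothing in the labels says that the shared numbers pair the samples. Leaving out each library in turn gave 2 to 10 carriers for IRI in KO, 6 to 17 for IRI in WT, 0 in control kidneys, 0 to 4 between genotypes after IRI and 0 for the interaction. DESeq2 called 9 carriers for IRI in KO and 19 for IRI in WT. Over all genes it called 2494 for IRI in KO and 5871 for IRI in WT, against 1215 and 4320 by edgeR, 32 for the interaction, against 0, and for KO against WT 117 after IRI and 72 in control kidneys, against 2 each. Library sizes without TMM moved the median of all genes by 0.081 for IRI in KO, -0.064 for IRI in WT and 0.109 for KO against WT after IRI (log2). The cause of these differences was not tested.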
